A study of Mus musculus with 22 samples.

Results

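In mouse embryos without Folr2, expression in dissected anterior neural tube was compared between arsenic exposure and water at gestational day (GD) 9 and hour 0, written GD9:00, which fell 12 h after the last of 2 maternal injections. Every sample titled GD9:00 was taken, which gave 7 of the 22 arrays of the series, 3 arsenic arrays and 4 control arrays. Dams of the arsenic group had been given sodium arsenate in water at 9.6 mg As per kg, and dams of the control group water alone at 10 µL per g, both intraperitoneally at GD7:12 and again at GD8:12. The remaining 15 arrays covered GD8:15 and GD9:12, and they entered here as a source of residual spread and for the comparison of stages. Every group was Folr2-/- (Folbp2 in the labels) and no wild-type array was analysed, so each difference concerns arsenic within the knockout alone. The little RNA of each neural tube was amplified before labelling, and the labels do not say how many embryos or dams stood behind an array. The p-values therefore measure the spread between these samples, which may be technical, and replicate numbers follow the order of deposit and pair nothing.

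Arsenate is reduced in cells to arsenite, which binds the thiol groups of proteins. The answers known from other cells include the integrated stress response, in which the translation factor eIF2 is phosphorylated and ATF4 and CHOP drive genes of amino acid supply, the heat shock response under HSF1, the NRF2 programme of glutathione and antioxidant enzymes, and arrest or death under p53. At this stage the anterior neural folds are closing and their cells divide rapidly. Folate uptake and one-carbon metabolism, in which the folate-binding protein Folr2 takes part, supply the nucleotides for that division.

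Folr2 itself was near the bottom of the scale. Its probe read 6.90, 6.80 and 6.86 on the log2 scale on arsenic replicates 1 to 3, against 7.10, 7.10, 6.94 and 6.97 on control replicates 1 to 4, and its mean over all arrays lay at percentile 2.93 of the probes, below the filter on dim probes. Whether this probe lies in the deleted stretch is not given in the sources used here, so the value is no check of the genotype. For comparison, the median probe had a mean log2 intensity of 7.55 and the probe at percentile 90 one of 9.78. Values below about 7.5 are thus close to the floor, and differences there understate or blur the true fold.

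The 2 groups of arrays differed before any gene was considered. Median intensities were 153 to 199 on arsenic arrays and 123 to 132 on control arrays, and the dimmest measured spots read 103 to 149 on arsenic arrays and 66 to 74 on controls. Runs of neighbouring probe numbers with low signal, called low runs here, held 0.467%, 0% and 0.476% of the probes on arsenic replicates 1 to 3, against 15.4%, 15.9%, 3.52% and 10.2% on control replicates 1 to 4. All 4 controls stood above all 3 arsenic arrays in this share. The exact two-sided permutation p over the 35 arrangements was 0.0571 (adjusted p = 0.171 over a family of 6 single values). On controls 1, 3 and 4 the runs overlapped around probe numbers 9400 to 10000, so that probes there read low on several controls. Arsenic replicate 3 also stood apart from arsenic replicates 1 and 2. Its mean correlation across probes was 0.903 with the other arsenic arrays and 0.850 with the controls. For arsenic replicates 1 and 2 these were 0.933 to 0.946 and 0.941 to 0.944. Controls 1 to 4 had 0.900, 0.894, 0.933 and 0.921 with the other controls, and 0.896, 0.879, 0.949 and 0.922 with the arsenic arrays. Controls 1 and 2 were thus slightly below arsenic replicate 3 in correlation with their own group. A probe with at least 1 value in a low run on the 7 arrays is called banded below, and for the genes that matter the difference without those values is given.

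**Figure D1:**
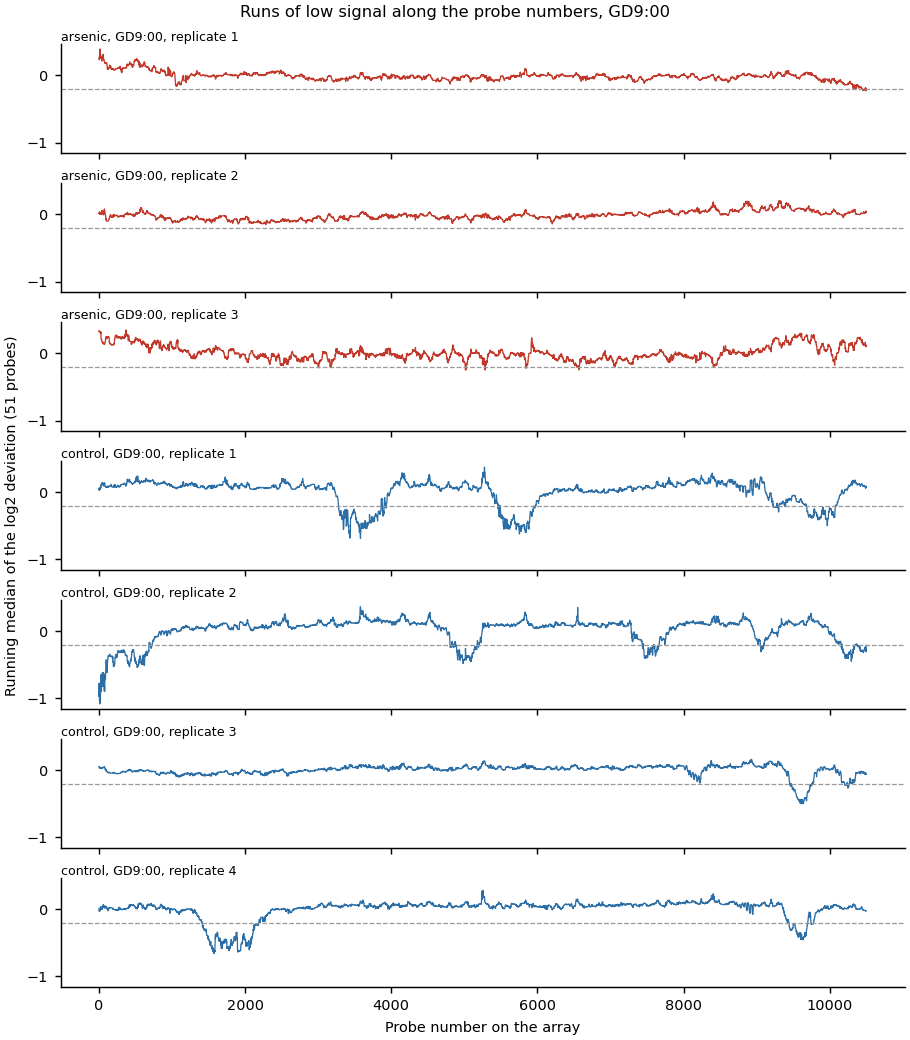
Running median over 51 probes (vertical axis, log2 units) of each array's deviation from the 22-array median of every probe, plotted against the probe number (horizontal axis), for the 3 arsenic arrays in red and, under them, the 4 control arrays in blue. The dashed line marks the threshold of -0.2 below which a stretch counts as a low run. The controls dip below it over long stretches, the first run of control replicate 2 reaching from probe 1 to probe 683, while low runs hold under 0.5% of the probes on each arsenic array.

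Across the 7833 probes tested, none passed an adjusted p of 0.05 (limma, 0% called, lowest adjusted p 0.147). At an unadjusted p under 0.05 stood 985 probes, or 12.6%, of which 357 (4.56%) were higher with arsenic and 628 (8.02%) lower. All 3 arsenic arrays lay above all 4 controls for 189 probes (2.41%) and below them for 566 (7.23%). The balance of higher and lower depended on the low runs. Among the 4644 probes free of them, 113 (2.43%) were higher and 571 (12.3%) lower at an unadjusted p under 0.05, and among the 3189 banded probes 244 (7.65%) were higher and 57 (1.79%) lower. The median log2 difference was -0.06 in the band-free probes, of which 1807 (38.9%) were above 0, and 0.10 in the banded ones, of which 2191 (68.7%) were above 0. Over all probes it was 0.01, with 3998 (51%) above 0. Under the scaling of the authors the median of all probes moved to 0.43 and the split became 2709 higher (34.6%) and 217 lower (2.77%). With the low runs masked, 380 (4.87%) were higher and 474 (6.08%) lower.

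On most of these probes 1 array was the extreme one. Arsenic replicate 3 was the lowest of the 3 arsenic arrays on 548 of the 628 lower probes, 87.3%, and the highest on 271 of the 357 higher ones, 75.9%. Without it, 344 probes (4.39%) stood at an unadjusted p under 0.05, 141 higher and 203 lower, and 1 passed adjustment (0.0128%), Cdkn1a. Genes are therefore described below by their value on every array, by whether the arms overlap and by what masking the low runs does to the difference. List members beyond the naming rule were chosen after their values were seen.

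Several genes of the integrated stress response, among them Atf3, Ddit3 and Chac1, were high on arsenic replicates 1 and 3 and within the control range on arsenic replicate 2, while Asns, Shmt2 and Ddit4 were above every control on all arsenic arrays. Of 27 measured members of this list, 19 had a positive difference, the median was 0.25, and 7 were higher and 3 lower at an unadjusted p under 0.05, where 4.56% and 8.02% of all probes were. In bulk tissue, a difference can come from fewer or more cells of a type or from less or more RNA per cell, and these cannot be told apart. The list's mean log2 intensity was 9.11, 8.74 and 8.86 on arsenic replicates 1 to 3, against 8.76, 8.66, 8.63 and 8.72 on controls 1 to 4. Arsenic replicate 2 thus fell within the range of the controls and the other arsenic arrays did not.

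Among the transcription factors of this response, Atf3, which is induced by ATF4 and by stress kinases, read 8.55, 7.39 and 9.07 on arsenic replicates 1 to 3, against 7.40, 7.34, 7.29 and 7.34 on controls 1 to 4. Its controls were tight, and arsenic replicate 2 sat among them. The difference was 0.99 ± 0.38 (SE; limma adjusted p = 0.321), and with arsenic replicate 2 left out 1.46. Ddit3, which encodes CHOP, a factor that promotes death under lasting stress, read 9.13, 7.54 and 8.59 with arsenic, against 7.88, 7.23, 7.58 and 7.59 in controls. Again 2 arsenic arrays were above every control and the remaining one was not, for a difference of 0.85 ± 0.29 (adjusted p = 0.281). Atf5 read 9.07, 8.63 and 9.38 with arsenic and 8.64, 8.70, 8.46 and 8.70 in controls. Atf4 itself, the factor at the centre, was bright on all arrays, with 13.70, 12.44 and 13.17 with arsenic and 12.75, 12.81, 12.69 and 13.16 in controls. Its lowest arsenic value was below all controls and its difference was 0.25 ± 0.34; ATF4 is known to be controlled largely at translation, which arrays do not measure.

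Of the targets, Chac1, a glutathione-degrading enzyme, read 8.45, 7.40 and 8.76 with arsenic, against 7.60, 7.07, 7.53 and 7.64 in controls. Arsenic replicates 1 and 3 were above every control and replicate 2 was inside their range, giving a 1.67-fold difference (log2 0.74 ± 0.24 SE, adjusted p = 0.267) that was 1.15 without replicate 2 and 0.47 without replicate 3. Asns, the asparagine synthetase, had a different pattern, with 11.31, 10.87 and 11.52 on the arsenic arrays and 10.68, 10.51, 10.15 and 10.20 on the controls. All arsenic arrays lay above all controls, by 0.85 ± 0.35 (adjusted p = 0.350). Shmt2, the mitochondrial serine enzyme that feeds one-carbon units, read 8.19, 8.15 and 9.06 against 7.90, 7.84, 7.81 and 7.90 in controls, also without overlap (0.60 ± 0.20, and 0.31 without arsenic replicate 3). With its 1 control value in a low run masked, the difference of Shmt2 was 0.70. Ddit4, an inhibitor of mTORC1 signalling, read 9.91, 9.38 and 9.64 against 8.30, 9.23, 9.02 and 9.23 in controls. Its groups did not overlap either, and the difference of 0.70 was 0.60 once the 1 control value in a low run was masked. Mthfd2, a mitochondrial folate enzyme, ranged most widely, with 13.13, 10.37 and 12.56 on the arsenic arrays and 11.71, 10.99, 11.74 and 10.93 on the controls, so its 0.68 ± 0.64 was about as large as its error.

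The 3 members lower at an unadjusted p under 0.05 belong to the endoplasmic reticulum branch. Pdia6, a disulfide isomerase that folds secreted proteins, read 8.32, 8.33 and 7.66 with arsenic, against 9.27, 9.11, 8.28 and 9.00 in controls. Control replicate 3 lay within the arsenic range and the other controls above it (-0.81 ± 0.22 SE, adjusted p = 0.243). Hspa5, the main chaperone of that compartment, read 9.13, 10.25 and 8.11 with arsenic and 10.28, 10.35, 9.45 and 10.12 in controls, with the groups overlapping. Xbp1, the factor spliced during unfolded protein stress, read 7.39, 7.68 and 7.27 with arsenic and 7.90, 8.10, 7.75 and 7.64 in controls. The arsenic values of Hspa5 and Xbp1 were lowest on arsenic replicate 3, which was the lowest arsenic array on most of the probes lower at an unadjusted p under 0.05.

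Because Chac1 and Atf3 were high on the same arrays, the 250 bases upstream of their starts in RefSeq (GRCm38.p6) are shown, with the letters of a C/EBP-ATF response element in capitals; the motif searched was TGATGNAA on both strands. Chac1 is given for chr2:119350992-119351241 on the plus strand, and Atf3 for chr1:191183334-191183583 on the minus strand, each 5′ to 3′ along its gene.
Chac1: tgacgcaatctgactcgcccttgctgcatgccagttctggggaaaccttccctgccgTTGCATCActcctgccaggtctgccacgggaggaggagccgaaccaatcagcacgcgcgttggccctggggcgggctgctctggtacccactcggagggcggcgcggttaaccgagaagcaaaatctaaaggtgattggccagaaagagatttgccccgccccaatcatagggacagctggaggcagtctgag
Atf3: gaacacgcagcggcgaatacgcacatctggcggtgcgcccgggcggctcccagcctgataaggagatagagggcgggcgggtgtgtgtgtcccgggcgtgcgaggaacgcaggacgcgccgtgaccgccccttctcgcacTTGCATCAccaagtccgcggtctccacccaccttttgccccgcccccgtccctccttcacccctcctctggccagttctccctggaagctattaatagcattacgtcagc
The match ended 186 bases before the start of Chac1 and 103 bases before that of Atf3. Asns also held 1 match, 16 bases before its start, and the windows of Ddit3 and Trib3 held none. Of 32851 such windows in the table, 1134 or 3.45% held the motif. A match is a description of letters, not a bound site.

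In the heat shock list, the largest positive differences belonged to an adjacent pair of HSP70 genes. Hspa1b, an inducible HSP70 gene, read 11.09, 8.51 and 11.35 on arsenic replicates 1 to 3, against 8.88, 8.75, 8.43 and 8.45 on controls 1 to 4. Its neighbour Hspa1a read 9.43, 7.37 and 8.71 against 7.64, 7.43, 7.33 and 7.34. Both were far above every control on arsenic replicates 1 and 3 and within the control range on replicate 2. The differences were 1.69 ± 0.46 for Hspa1b (adjusted p = 0.243) and 1.07 ± 0.37 for Hspa1a (adjusted p = 0.288), both SE. Without arsenic replicate 2 they were 2.60 and 1.63, and both passed (limma adjusted p = 0.000335 and 0.0490). Leaving out the array at control level favoured that outcome. Without arsenic replicate 3 they were 1.18 and 0.97, and neither passed (limma adjusted p = 0.999 for each). These near-identical genes may share probe signal, so they are not 2 independent observations.

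Of the 17 genes measured in the heat shock list, these included, 6 were higher and 11 lower, with a median difference of -0.18 that was 0.06 under the scaling of the authors, where the median of all probes was 0.43. Bag3, Dnajb1, Hsph1, Hspb8 and Cryab, a co-chaperone and chaperones known to respond to heat, had differences of 0.30, -0.28, -0.12, -0.24 and 0.02. Hspa8, the constitutive HSP70, read 14.05, 13.06 and 13.56 with arsenic and 14.62, 14.33, 13.59 and 13.63 in controls. Dnaja1, an HSP40 co-chaperone, read 10.03, 10.24 and 8.61 with arsenic and 10.09, 11.76, 9.89 and 10.98 in controls, with the lowest value on arsenic replicate 3 (-1.06 ± 0.49 SE, and -0.55 without it). Hspb1, a small heat shock protein, was a dim banded probe at 7.48, 7.51 and 7.59 with arsenic, against 7.25, 7.42, 6.87 and 6.95 in controls, and its difference of 0.40 was 0.26 with low runs masked. Without arsenic replicate 3 the median of the list was 0.01.

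Among antioxidant genes, Hmox1, which degrades haem, was high on the same 2 arrays. It read 9.37, 7.55 and 9.20 with arsenic, against 7.04, 7.67, 7.59 and 7.57 in controls, and arsenic replicate 2 was inside the control range. The lowest control value lay in a low run; the difference of 1.24 ± 0.38 (SE, adjusted p = 0.262) was 1.17 without it. Gpx2, a glutathione peroxidase, was instead even across the arsenic arrays, at 8.18, 8.08 and 8.19, against 7.64, 7.52, 7.53 and 7.83 in controls. Every arsenic array was above every control, the probe was free of low runs, and the 1.43-fold difference (log2 0.52 ± 0.10 SE) shared the lowest adjusted p of the comparison, 0.147, with 5 other probes. In the whole list 14 of 26 genes were higher, with a median of 0.03, and Nqo1, Gclm, Gclc and Txnrd1 had differences of 0.20, -0.01, 0.31 and 0.11. Slc7a11, counted in the integrated stress response list, had 0.04. Mt2, a metallothionein, read 7.97, 7.82 and 7.50 with arsenic and 7.34, 7.38, 7.43 and 7.27 in controls. Its groups did not overlap, near the dim end of the scale (0.41 ± 0.15), and 1 of its values lay in a low run. With low runs masked and arrays weighted by quality, the difference was 0.59. As3mt, which methylates arsenic, read 7.54, 7.87 and 7.25 with arsenic and 7.62, 7.64, 7.53 and 6.95 in controls, with the groups overlapping.

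In the AP-1 family, Jdp2, a leucine zipper repressor of AP-1, read 12.09, 9.69 and 12.94 with arsenic, against 9.66, 9.68, 10.04 and 9.61 in controls. Arsenic replicates 1 and 3 exceeded the controls by more than 2 log2 units and replicate 2 sat among them (1.82 ± 0.59 SE, adjusted p = 0.267; 2.77 without replicate 2 and 1.14 without replicate 3). Jun, the central AP-1 subunit, had a different pattern, with 10.09, 9.64 and 10.47 on the arsenic arrays and 9.06, 7.10, 8.92 and 8.83 on the controls. All arsenic arrays were above all controls; the control value of 7.10 lay in a low run, and the difference of 1.59 ± 0.52 was 1.22 without it. The early-response factors Fos, Junb, Egr3 and Nr4a1 differed by -0.05, 0.17, -0.08 and -0.04.

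p53 target genes showed a second order of arrays. Cdkn1a, the cell cycle inhibitor p21, read 8.43, 9.06 and 7.64 on arsenic replicates 1 to 3, against 7.04, 7.56, 6.92 and 6.91 on controls 1 to 4. Phlda3, an inhibitor of AKT signalling, read 9.56, 11.14 and 9.14 with arsenic, against 8.55, 8.41, 8.61 and 7.29 in controls. Ccng1, cyclin G1, read 10.66, 11.78 and 10.11 with arsenic, against 9.30, 9.35, 9.28 and 9.71 in controls. All 3 genes were highest on arsenic replicate 2, on which Chac1, Ddit3, Atf3, Hspa1a, Hspa1b and Hmox1 were within the control range, lowest of the arsenic arrays on replicate 3, and above every control on each.

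The differences were 1.27 ± 0.26 for Cdkn1a (2.42-fold, adjusted p = 0.147), 1.73 ± 0.60 for Phlda3 (3.32-fold, adjusted p = 0.288) and 1.44 ± 0.58 for Ccng1 (2.71-fold, adjusted p = 0.344), all SE and limma. Cdkn1a had 2 control values in low runs and Phlda3 had 1; without them the differences were 1.16 and 1.53, while the probe of Ccng1 was free of runs. Cdkn1a passed without arsenic replicate 3 (1.64, adjusted p = 0.0182), and no longer did once the low runs were masked as well (1.53, adjusted p = 0.320). Tnfrsf10b, a death receptor, read 8.44, 8.82 and 9.48 with arsenic, against 8.06, 7.96, 8.08 and 8.40 in controls. It too was above every control, but its highest value fell on arsenic replicate 3 (0.79 ± 0.22, adjusted p = 0.243), without which the difference was 0.50. Of the 18 members measured, 11 were higher and the median was 0.04, with Gadd45a at -0.36, Sesn1 at -0.18, Aen at -0.16 and Btg2 at 0.04. Pmaip1, which encodes the death factor NOXA, read 8.70, 9.45 and 7.79 with arsenic and 7.99, 8.16, 8.31 and 8.64 in controls, again highest on replicate 2. Zmat3 did likewise, at 10.60, 12.58 and 9.69 with arsenic and 11.35, 10.58, 10.69 and 10.33 in controls.

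**Figure D2:**
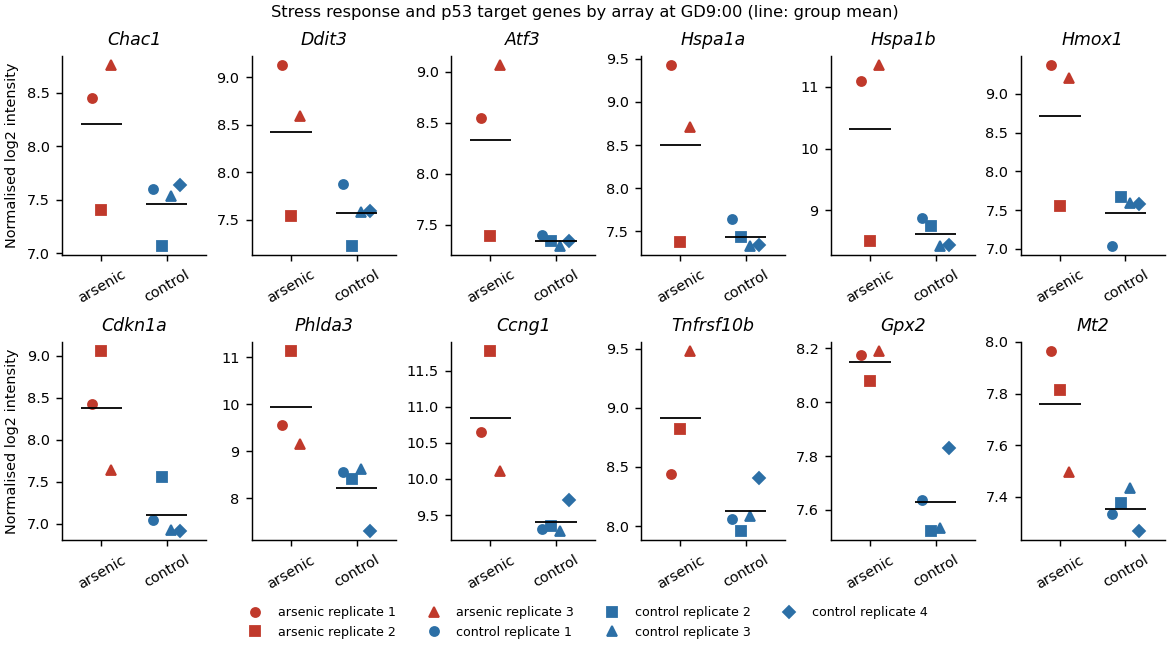
Normalised log2 intensity (vertical axis) of 12 stress and p53 target genes on each array of GD9:00, with arsenic in red at the left and control in blue at the right of each panel, symbols by replicate and a line at each group mean. Chac1, Ddit3, Atf3, Hspa1a, Hspa1b and Hmox1 are high on arsenic replicates 1 (circle) and 3 (triangle) alone, while Cdkn1a, Phlda3 and Ccng1 peak on arsenic replicate 2 (square) and clear the controls on all 3 arrays.

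Beyond these lists, the probes free of low runs with no overlap between groups were ranked by p. There were 83 such probes higher with arsenic and 483 lower, after requiring 1 gene symbol and a value on all 7 arrays. Of all tested probes, 2.41% lay above and 7.23% below without overlap. The median of all band-free probes was -0.06, and 0.01 with low runs masked, so masking also moved probes that were free of runs. Masked, the differences of Gpx2 and Pir were 0.59 and 1.47. The leading higher gene after Gpx2 was Pir, the iron-containing nuclear protein pirin, at 11.01, 11.51 and 11.82 with arsenic, against 9.12, 10.44, 10.49 and 10.34 in controls. The lowest arsenic array was clear of the highest control and control replicate 1 was apart below the rest (1.35 ± 0.29 SE, 2.55-fold, adjusted p = 0.157). Arnt, the partner of the aryl hydrocarbon receptor and of HIF, was even, at 9.03, 8.99 and 9.16 with arsenic and 8.09, 8.02, 8.31 and 8.49 in controls (0.83 ± 0.19, adjusted p = 0.243). Prpf6, a splicing factor, read 10.70, 10.43 and 11.33 against 10.36, 9.96, 9.26 and 9.27 in controls (1.11 ± 0.30), with the lowest arsenic array just above control replicate 1. Its probe, number 9434, lay just before the low runs of control replicates 3 and 4, which began at 9451 and 9441. Centring each array along the probe numbers gave 0.95. Smaller differences belonged to Rai14, an actin-binding ankyrin protein (0.55 ± 0.13), Txnip, the thioredoxin inhibitor (0.33 ± 0.09), Cnot2 of the deadenylase complex (0.67 ± 0.19), Nxn, the thioredoxin-like nucleoredoxin (0.29 ± 0.10), and Cox6b1 of cytochrome c oxidase (0.62 ± 0.20). Nckap1l, a WAVE complex subunit of blood cells, had 1.32 ± 0.39 and its highest value, 11.19, on arsenic replicate 3, without which it had 0.86. Its probe, number 9417, also lay shortly before those runs, and centring along the probe numbers gave 1.12.

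Among the lower genes, Dtnbp1, a component of lysosome-related vesicle assembly, had the lowest p. It read 8.24, 7.93 and 7.53 with arsenic, against 8.73, 8.72, 8.58 and 8.85 in controls, whose range was narrow and did not meet the arsenic values (-0.82 ± 0.16 SE, 1.76-fold lower, adjusted p = 0.147). Chn1, a Rac GTPase-activating protein of axon guidance, read 7.88, 7.83 and 7.52 against 8.41, 8.50, 8.07 and 8.32 in controls (-0.58 ± 0.12), and Med11 of the Mediator complex 8.03, 8.08 and 7.58 against 8.90, 9.01, 8.63 and 8.20 (-0.79 ± 0.17), both at an adjusted p of 0.157. Both were lowest on arsenic replicate 3 and had differences of -0.47 and -0.63 without it. With low runs masked, the differences were -0.71 for Dtnbp1, -0.49 for Chn1 and -0.68 for Med11, and -0.70 and -0.68 for Rab38 and Banf1 below. Rab38 of pigment vesicles (-0.83 ± 0.21), Banf1, a chromatin-binding protein (-0.80 ± 0.20), Mogs of N-glycan trimming (-0.65 ± 0.16, and -0.38 without arsenic replicate 3), Rfc1, the large clamp loader subunit (-1.01 ± 0.24), and Mpdz, a scaffold protein (-0.28 ± 0.08), were lower too. Rapgef1 (-0.32), Fen1 (-0.56), Alpl (-0.50), Snurf (-0.48), Shmt1 (-0.50) and Mpdz had the opposite sign under the scaling of the authors, where the median of all probes was 0.43.

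**Figure D3:**
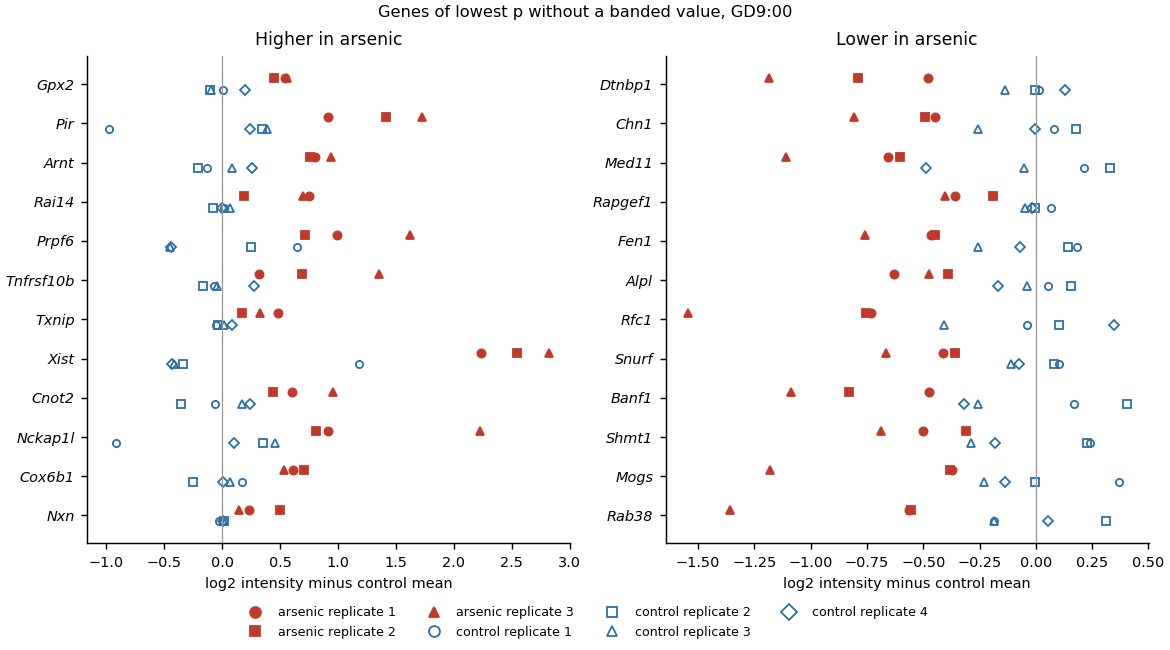
Log2 intensity minus the control mean (horizontal axis) on each array, arsenic filled red and control open blue with symbols by replicate, for the 12 band-free genes of lowest p that were higher (left) and the 12 that were lower (right) without overlap of the groups. Arsenic replicate 3 (triangle) is the most extreme array for most of the lower genes, and control replicate 1 (circle) stands apart for Pir, Nckap1l and Xist.

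The lowest p-values with the low runs kept came partly from banded probes. Pex19, a peroxisome import factor, read 9.76, 9.34 and 9.52 with arsenic, against 7.73, 9.17, 7.91 and 7.73 in controls, and the 3 low controls were all in low runs. The 1 control outside a run lay just below the lowest arsenic array, so no replicated difference is left once the runs are masked. Pcp2, a Purkinje cell protein, read 8.22, 8.22 and 8.67 against 7.25, 8.07, 7.49 and 7.20 in controls, with 2 controls in runs (0.87, and 0.81 masked). Chst1, a keratan sulfotransferase, read 10.45, 10.26 and 10.98 against 8.79, 9.31, 9.56 and 8.25 in controls, with 1 control in a run (1.58, and 1.46 masked). The Chst1 arsenic arrays were above all the controls that lay outside low runs.

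Which genes passed depended on how the arrays were weighted, and the alternatives that combined masking with another choice were added after the data were seen. With low runs masked and arrays weighted by their quality (limma), 29 probes passed (0.372%), 26 higher and 3 lower. They included Gpx2, Atf3, Hspa1b, Hspa1a, Ddit3, Hmox1, Ddit4, Jun, Mt2, Cdkn1a, Ccng1, Arnt, Prpf6, Rai14 and Txnip among the higher and Alpl and Grpel1, a mitochondrial import factor, among the lower. The weights were 3.09, 0.957 and 0.237 for arsenic replicates 1 to 3, so this fit leans on arsenic replicate 1. With arsenic replicate 2 left out, 14 passed (0.179%), among them Hspa1b, Chac1, Jdp2, Hmox1, Ddit3 and Hspa1a, and with low runs also masked 20 passed (0.259%), adding Atf3. On arsenic replicate 2 these named genes were within the control range, so leaving it out favoured their passing. With control replicate 2 left out, 35 passed (0.447%), of which 32 were banded and 32 lay at probe numbers 9400 to 10000; with low runs masked as well, 0 passed (0%, limma, 518 at an unadjusted p under 0.05).

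Genes of respiration, protein turnover and division had negative medians, and their lowest values fell on arsenic replicate 3. Oxidative phosphorylation had 14 of 52 genes higher and a median of -0.31, against 0.01 for all probes, and its mean log2 intensity was 10.79, 10.66 and 9.95 on arsenic replicates 1 to 3, against 10.75, 10.78, 10.61 and 10.81 on controls 1 to 4. Arsenic replicates 1 and 2 were within the control range and replicate 3 was far below it, and without that array the median was -0.09. The proteasome list read 10.02, 9.92 and 9.21 with arsenic and 9.95, 10.11, 9.73 and 9.84 in controls, with a median of -0.18 that was 0.02 without arsenic replicate 3. Under the scaling of the authors the median was -0.43 for oxidative phosphorylation and -0.15 for the proteasome, beside 0.43 over all probes. Glycolysis read 9.63, 9.47 and 9.12 with arsenic and 9.65, 9.62, 9.54 and 9.56 in controls, with a median of -0.11 that was 0.07 under the scaling of the authors. Single members showed the same array: Psmd6, a proteasome lid subunit, read 10.48, 10.46 and 8.09 with arsenic and 10.73, 10.87, 10.38 and 11.39 in controls (-1.16, and -0.37 without arsenic replicate 3). Sdhd, a membrane subunit of succinate dehydrogenase, read 8.25, 8.53 and 7.53 with arsenic and 9.27, 9.47, 8.41 and 9.13 in controls (-0.96 ± 0.32 SE), and was lower on arsenic replicate 1 than on any control as well. Pkm, the pyruvate kinase of dividing cells, read 12.38, 12.19 and 10.61 with arsenic and 13.11, 13.30, 12.48 and 12.27 in controls (-1.06, and -0.51 without arsenic replicate 3).

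Cell cycle and replication genes had 25 of 63 members higher and a median of -0.17, with 4 higher and 15 lower at an unadjusted p under 0.05, where 4.56% and 8.02% of all probes were. Of the 63 members 37 were free of low runs, and among all band-free probes 2.43% were higher and 12.3% lower. The median was -0.07 without arsenic replicate 3, and 0.24 under the scaling of the authors beside a median of 0.43 over all probes. Mcm4, a subunit of the replicative helicase, read 7.97, 8.24 and 7.33 with arsenic and 8.81, 9.30, 7.98 and 9.06 in controls (-0.94 ± 0.29 SE). Control replicate 3 lay among the arsenic arrays and the other controls above them. Fen1, the flap endonuclease of lagging-strand synthesis, read 7.32, 7.34 and 7.03 against 7.97, 7.93, 7.53 and 7.72 in controls, with no overlap. Rfc1 read 8.75, 8.73 and 7.94 against 9.44, 9.58, 9.07 and 9.83, also with no overlap. Atm, the DNA damage kinase, had -0.53 ± 0.18, and the DNA repair list a median of -0.04.

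**Figure D4:**
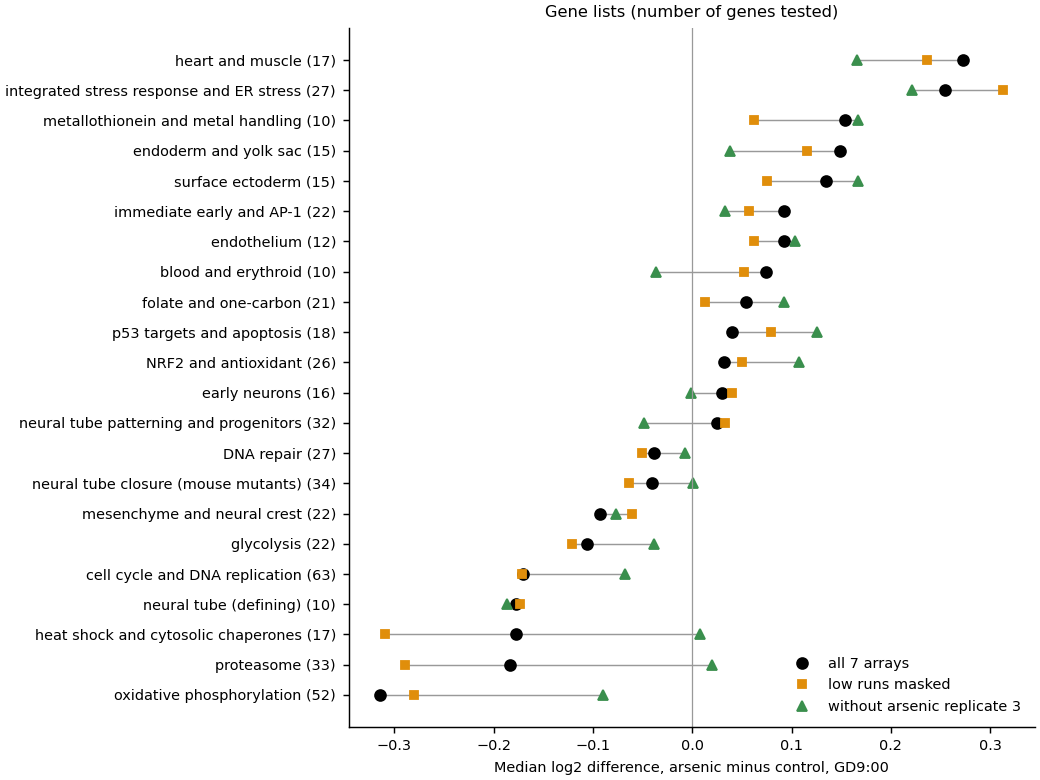
Median log2 difference, arsenic minus control (horizontal axis), of 22 gene lists with the number of genes tested in brackets, with all 7 arrays (black circle), with low runs masked (orange square) and without arsenic replicate 3 (green triangle). The medians of the proteasome and heat shock lists cross 0 without arsenic replicate 3, and that of oxidative phosphorylation shrinks to -0.09. The smaller medians of the patterning, closure, early neuron and blood lists cross 0 there as well. The stress response and heart lists stay positive in all 3 settings. So do several others, among them the metallothionein, surface ectoderm, endothelium and endoderm lists.

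Neural tube genes had differences of both signs. Patterning and progenitor genes had 16 of 32 higher and a median of 0.03, and genes whose mouse mutants fail neural tube closure 16 of 34 and -0.04. Zic2, a dorsal zinc finger factor required for closure, read 9.55, 8.98 and 10.23 with arsenic, against 8.53, 7.36, 8.63 and 9.27 in controls. The groups overlapped, and the difference of 1.14 ± 0.39 (SE) was 0.86 without the control value in a low run. Sox11, a factor of newborn neurons, read 10.85, 10.64 and 8.63 with arsenic, against 11.44, 11.47, 11.54 and 11.15 in controls, all controls higher (-1.36 ± 0.42, and -0.65 without arsenic replicate 3), but a second probe for it gave 0.04, so the gene is unsettled. En2, a midbrain and hindbrain homeobox gene, read 7.50, 7.31 and 7.35 with arsenic and 8.75, 8.80, 8.15 and 7.06 in controls. The 1 control below the arsenic arrays lay in a low run, and without it the difference of -0.80 was -1.08. Its partner En1 read 10.89, 10.57 and 11.12 with arsenic and 11.91, 11.81, 11.81 and 10.14 in controls, where again the lowest control was in a low run (-0.56, and -0.84 masked). The planar polarity transducers Dvl1 (-0.34 ± 0.12) and Dvl2 (-0.21 ± 0.08), both on the closure list, were lower on every arsenic array than on every control. Both turned positive under the scaling of the authors.

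Folate and one-carbon genes had 13 of 21 members higher and a median of 0.05. Cytosolic Shmt1 read 7.29, 7.49 and 7.11 with arsenic, against 8.04, 8.02, 7.51 and 7.61 in controls, and mitochondrial Shmt2, given above, was higher on every arsenic array. The groups did not overlap for either enzyme and neither passed (adjusted p = 0.243 and 0.275, limma). Their differences had opposite signs here but not under the scaling of the authors, where Shmt1 had 0.064 and Shmt2 0.84, and without arsenic replicate 3 that of Shmt2 was 0.31. Mthfs, which returns folinic acid to the folate pool, read 7.84, 7.92 and 7.18 against 8.30, 8.43, 8.03 and 8.01 in controls, all controls higher (-0.54 ± 0.17 SE, and -0.31 without arsenic replicate 3). Folr1, the folate receptor these embryos keep, read 9.41, 9.09 and 10.49 with arsenic and 9.23, 8.61, 9.38 and 9.09 in controls, with overlap (0.59 ± 0.32).

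Markers of the tissue in the label were examined. Of the 14 defining neural tube markers listed, 11 were on the array, 10 were tested and 8 were above the median probe. All tested probes had already passed the dim filter. Other lists had 8 of 10 (blood), 13 of 17 (heart and muscle), 12 of 15 (surface ectoderm) and 8 of 12 (endothelium) above it. The count therefore does not tell the tissues apart and is no check of the label. The mean log2 intensity of the neural tube markers was 8.61, 8.53 and 8.62 on arsenic arrays and 8.71, 8.89, 8.75 and 8.52 on controls, so the arms overlapped. Of the 10, 2 were higher and 8 lower with arsenic, with a median difference of -0.18 that was -0.17 with low runs masked, -0.19 without arsenic replicate 3 and 0.14 under the scaling of the authors, where the median of all probes was 0.43. Markers of other tissues were present as well. Heart and muscle genes had 15 of 17 higher, a median of 0.27 and a mean log2 intensity of 8.69, 8.65 and 9.15 on arsenic arrays, against 8.20, 8.28, 8.41 and 8.90 on controls. The arms overlapped, since control replicate 4 lay above arsenic replicates 1 and 2. Actc1, cardiac actin, read 11.55, 12.01 and 13.65 with arsenic and 10.46, 11.09, 10.82 and 13.12 in controls, so control replicate 4 was again above arsenic replicates 1 and 2. Cnn1, calponin of smooth muscle, read 9.66, 9.20 and 9.45 with arsenic and 7.45, 8.18, 8.21 and 9.57 in controls (1.09 ± 0.34 SE), with control replicate 4 among the arsenic arrays.

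Surface ectoderm genes had 11 of 15 higher and a median of 0.13. Krt7, an epithelial keratin, read 11.41, 12.23 and 12.13 with arsenic, against 10.99, 10.73, 11.20 and 10.71 in controls, with no overlap (1.02 ± 0.35 SE). Blood genes varied widely within each arm. Hba-a1, an alpha globin, read 11.39, 10.42 and 11.60 with arsenic and 12.57, 7.86, 12.02 and 9.60 in controls, and its difference of 0.62 ± 0.88 became -0.17 without the control value in a low run. The mean of the blood list was 8.36, 8.29 and 8.87 on arsenic arrays and 8.63, 8.05, 8.55 and 8.16 on controls. Endothelial Sox17 (0.60, and 0.39 masked) and Erg were banded on several controls. The part of these tissues in any difference above was not tested.

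Of the 5 sex-linked genes measured, Xist alone separated the arms. Xist, transcribed from the inactive X chromosome of females, read 9.77, 10.08 and 10.35 with arsenic, against 8.71, 7.20, 7.12 and 7.10 in controls (2.53; exact two-sided permutation p = 0.0571, adjusted p = 0.171 over the family of 6). Eif2s3y, a Y-linked gene, read 7.17, 7.01 and 7.18 with arsenic and 7.06, 7.89, 7.37 and 7.79 in controls (-0.41; exact permutation p = 0.171). Control replicate 1 had the highest Xist of the controls and an Eif2s3y value within the arsenic range; for Eif2s3y the value of control replicate 4 lay in a low run. The other Y-linked probes Uty (0.30), Kdm5d (0.91) and Zfy1 (0.15) did not separate the arms (exact permutation p = 0.143, 0.286 and 0.171). Arsenic and sex cannot be told apart for genes that differ between male and female embryos. Pir, which is X-linked, was lowest on control replicate 1, the control with raised Xist.

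The arsenic arrays and controls of GD9:00 share no samples with those of the other stages. Within GD8:15 0 probes passed (0%), with 571 (7.29%) at an unadjusted p under 0.05, and within GD9:12 0 passed (0%), with 100 (1.28%). The integrated stress response list had 20, 19 and 19 of 27 genes higher at GD8:15, GD9:00 and GD9:12, with medians of 0.24, 0.25 and 0.10. Single stress genes, chosen after their values were seen, differed more between stages. Chac1 had differences of 1.30, 0.74 and -0.07 at GD8:15, GD9:00 and GD9:12, Hmox1 1.78, 1.24 and -0.01, Jdp2 2.13, 1.82 and 0.16, and Hspa1b 1.19, 1.69 and 0.15. The p53 list had 11, 11 and 10 of 18 genes higher and medians of 0.02, 0.04 and 0.06. Of its members, Cdkn1a had 0.41, 1.27 and 0.32, Phlda3 0.15, 1.73 and 0.75, and Ccng1 0.10, 1.44 and 0.80. Gpx2 had 0.07, 0.52 and 0.06, and Pir -0.06, 1.35 and 0.13.

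Tested directly, no difference of effects passed (limma). Between GD9:00 and GD8:15, 0 of 7833 probes were called (0%), with 641 or 8.18% at an unadjusted p under 0.05, and between GD9:00 and GD9:12 0 were called (0%), with 501 or 6.4%. For Cdkn1a the effect at GD9:00 exceeded that at GD8:15 by 0.87 ± 0.35 (SE, adjusted p = 0.553) and that at GD9:12 by 0.95 ± 0.37 (adjusted p = 0.766). Chac1 was smaller than at GD8:15 by a difference of -0.56 ± 0.33 and larger than at GD9:12 by 0.81 ± 0.34. The lowest p among probes free of low runs belonged to Cnn1 against GD8:15, where it had -1.17 (2.25 ± 0.47, adjusted p = 0.393), and to Dtnbp1 against both stages (-0.99 ± 0.22 and -1.03 ± 0.23). Xist differed from GD9:12 by 3.88 ± 1.01, the arms there being the other way round. With arsenic replicate 2 left out and low runs masked, a setting added after the data were seen, Atf3 and Hspa1b passed against GD9:12. Both were within the control range on the array left out, which favoured their passing. With low runs masked and all arrays kept 0 passed, and with arsenic replicate 3 left out instead 0 passed.

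**Figure D5:**
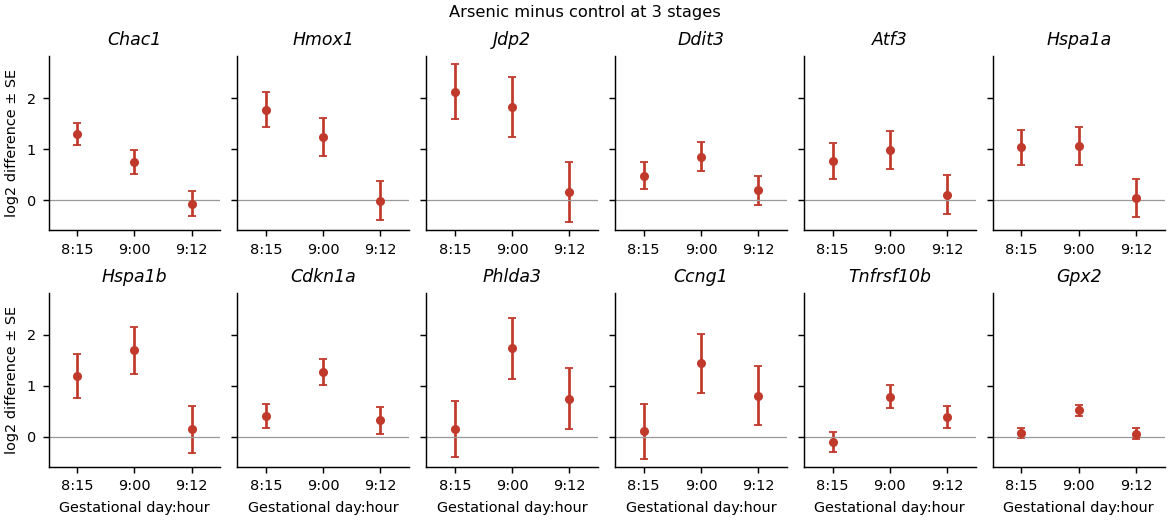
Log2 difference, arsenic minus control, with its SE (vertical axis) at GD8:15, GD9:00 and GD9:12 (horizontal axis) for 12 genes. Chac1, Hmox1, Jdp2, Ddit3, Atf3, Hspa1a and Hspa1b are above 0 at the first 2 stages and near 0 at GD9:12, while Cdkn1a, Phlda3, Ccng1, Tnfrsf10b and Gpx2 peak at GD9:00; no difference between stages passed adjustment.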

How the data were processed

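Amplified, biotin-labelled RNA was hybridised to one-colour CodeLink arrays of 10500 probes and detected with a streptavidin dye, per the labels' protocols. The deposited values were whole-number intensity values scaled by the authors to an equal array mean within a stage; scanner software, background correction and scaling method are not given in the sources used here. All 838 values of 1 or 2 stood apart and were set to missing. Log2 values of the 22 arrays were quantile normalised, and the dimmest 25% of probes, and those with fewer than 2 values in a group, were left out, which left 7833. A linear model with 6 groups was fitted with limma 3.58.1 in R 4.3.3 (lmFit and eBayes), with Benjamini-Hochberg adjustment over all tested probes at 0.05, and was tested on simulated data. Single values were compared by exact permutation of the arrays. Low runs are stretches where the running median over 51 probes of an array's deviation from the probe medians was below -0.2. Gene symbols came from the platform annotation: 9378 probes had 1 symbol, 8 several and 1114 none, and no gene was named from a probe with several. Tables and plots were made with Python 3.11.15, pandas 2.3.3 and matplotlib 3.10.9. The number of arrays limits the precision.

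The genes named were the 12 of lowest p in each direction among band-free probes whose arms did not overlap, the 5 of lowest p in each direction among all probes, up to 4 of lowest p in each list, the 3 of lowest p for each difference between stages, and Folr2 with sex-linked genes. A gene with several probes in a list was taken by its brightest probe. Members and lists were chosen with earlier results of these data known. Alternatives covered masking the low runs, 3 other normalisations, the dim filter, missing values, array weights, the moderation, the arrays in the fit and leaving out each array.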

Additional observations from a re-analysis of the deposited data

Results flagged for a closer look

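For 11 of the 109 named probes, 1 of the 4 controls lay far from the remaining controls, beyond Dixon's 95% limit; chance flags about 1 in 20 groups. In 5 of them the value apart was itself in a low run. These were Hmox1, lowest at 7.04 on control replicate 1, Jun, lowest at 7.10 on control replicate 2, and Phlda3, Krt18 and En1, lowest at 7.29, 8.68 and 10.14 on control replicate 4. For Pex19 the value apart was the high one, 9.17 on control replicate 2, the only control outside a low run there.

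The other flagged probes had no such mark on the value apart. Pir was lowest at 9.12 and Xist highest at 8.71, both on control replicate 1. Hk2, a hexokinase, was highest at 11.29 on control replicate 2, Jdp2 at 10.04 on control replicate 3 and Ccng1 at 9.71 on control replicate 4.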

How the results depend on the processing

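The count of probes passing adjustment at GD9:00, 0 in the reported fit (limma, 985 at an unadjusted p under 0.05), was 1 under the scaling of the authors and 110 with array weights, of which 85 were banded. Leaving out 1 array gave 0 to 35. Among the alternatives chosen after seeing the data, masking with array weights gave 29, and masking without arsenic replicate 2 gave 20. For the difference from GD8:15 the count was 2 with array weights and 0 to 6 leaving out 1 array. For the difference from GD9:12 it was 1 with array weights, 0 to 1 leaving out 1 array, and 2 with masking without arsenic replicate 2. The 985 probes became 2926 under the scaling of the authors, 1553 with no filter, 617 with the lowest 50% left out, 558 with only the 7 arrays, 344 to 1312 leaving out 1 array, and 272 and 518 with masking without arsenic replicate 3 or control replicate 2. The causes were not tested. Of 109 named probes, 89 kept their sign under every alternative run. Under the scaling of the authors the sign turned for Rapgef1 (0.26), Fen1 (0.011), Alpl (0.017), Snurf (0.0013), Shmt1 (0.064), Emx2 (0.39), Dvl1 (0.059), Dvl2 (0.34), Chek2 (0.34), Tpi1 (0.24), Psme3 (0.026), Lmo2 (0.48), Tek (0.47), Zic1 (0.089), Eif2s3y (0.22) and Mpdz (0.24). Local centring turned Nqo1 (-0.011) and Uty (-0.019). Trf became -0.104 with masking and weights and -0.100 with masking without arsenic replicate 3. Hba-a1 became -0.17 with masking, also without control replicate 2, -0.0029 with array weights, -0.40 with masking without arsenic replicate 3, and -0.26 to 1.31 leaving out 1 array. No paired analysis was possible because the labels carry no replicate numbers shared between groups.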
